A study of Homo sapiens with 4 samples.

Results

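The genes described here are 10 members of the BCL2 family, which governs whether a cell survives or dies through its mitochondria. They were chosen by gene symbol and were all found in the deposited table, 10 of 28391 genes. They are the survival genes BCL2L1, MCL1 and BCL2, the pore-forming effector BAK1, the 5 BH3-only genes PMAIP1, BCL2L11, BIK, BID and BAD, and BCL2L12, a more distant relative. RNA was sequenced from HCT116, an established human colorectal carcinoma line, in 2 libraries with a short hairpin against ALKBH5 (shALKBH5, genotype labelled ALKBH5 knockdown) and 2 with a control hairpin (shNC, genotype labelled WT). ALKBH5 removes N6-methyladenosine from RNA. The labels give no treatment, name no second hairpin against ALKBH5 and no rescue, and do not say whether the cells were 1 clone or the libraries of a group separate cultures. The p-values therefore cover the spread among these 4 libraries and no more, and that spread may be technical.

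Proteins of this family meet at the mitochondrial outer membrane. BH3-only proteins are switched on by stress and either activate the effectors BAK and BAX or occupy the groove of the survival proteins, which otherwise hold the effectors back. Once freed, the effectors form pores, cytochrome c leaves the mitochondrion, and caspases are activated. In colorectal cells BCL-XL, the main product of BCL2L1, and MCL1 are widely regarded as leading survival proteins.

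The libraries held 16398604 to 17493141 reads assigned to genes. ALKBH5, the targeted gene, was at 312 and 270.2 normalised counts in the shALKBH5 libraries, against 1905 and 1941 in the shNC libraries, which is -2.72 ± 0.0812 (SE) as a log2 fold change (limma-trend adjusted p 0.00131, Benjamini-Hochberg). Of the markers of a colon epithelial line, 9 of 10 were in the table, with summed normalised counts of 104130 to 106240 in shALKBH5 and 112457 to 115271 in shNC. The epithelial keratin genes KRT18 and KRT8 were the 2 of the 9 that fell in limma-trend and 0 rose, while 6 had an unadjusted p under 0.05. In edgeR 5 were lower and 1 higher, EPCAM (log2 fold change 0.18, edgeR adjusted p 0.00343, limma-trend adjusted p 0.0538). Reads of mitochondrially encoded genes made up 7.26% and 7.57% of the shALKBH5 libraries, against 6.79% and 6.68% of the shNC libraries. What part these differences have in the family's values was not tested. The intestinal marker LGALS4 was nearly absent, with means of 4.52 in shALKBH5 and 1.97 in shNC, and CDX1 was not among the genes of the table. The 4 of 6 leukocyte markers in the table (without PTPRC and CD3E) summed to 23.3 and 21.0 in shALKBH5 and to 26.6 and 32.7 in shNC, and the 4 endothelial markers to 28.4 and 43.0 in shALKBH5 and to 37.1 and 56.2 in shNC. The 4 of 6 fibroblast markers in the table summed to 882 and 858 in shALKBH5 and to 913 and 925 in shNC, nearly all of it COL1A1, while the fibroblast gene DCN had means of 0.507 in shALKBH5 and 0.511 in shNC.

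BCL2L1 was higher in the shALKBH5 libraries and was the 1 member of the family that passed the test over all genes, 1 of 10 where 3.86% of all genes passed. BIK, BCL2L11, BAK1 and BCL2L12 also stood higher in both shALKBH5 libraries than in either shNC library, and MCL1 and PMAIP1 stood lower in both. These 6 missed the threshold, with adjusted p-values of 0.0701 to 0.0902 in limma-trend. With BCL2L1, groups were apart in 7 of 10 members. That compares with 50.6% of all genes tested and 63.6% of genes averaging 50 or more normalised counts, so such separation was common. BID, BAD and BCL2 overlapped between the groups. Every difference was moderate, with the largest log2 fold change at 0.49 in BIK.

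Promoter sequences are shown for BCL2L1, the member that passed, for PMAIP1, which stood lower, and for BAK1, the effector that stood higher. They are the 250 bases before the RefSeq start on GRCh38.p14, read on the gene's strand from 5′ to 3′. Of the 10 members, 8 had an entry. Where a gene had several starts, the one nearest its 5′ end in the deposited table was taken, which lay 26 bases from that end for BCL2L1, 48 for PMAIP1 and 17 for BAK1. Capitals mark matches, on either strand, to the GC box GGGCGG, the E box CACGTG, the CCAAT box CCAAT, the TATA box TATAAA and the cyclic AMP response element TGACGTCA.
BCL2L1, chr20:31723964-31724213: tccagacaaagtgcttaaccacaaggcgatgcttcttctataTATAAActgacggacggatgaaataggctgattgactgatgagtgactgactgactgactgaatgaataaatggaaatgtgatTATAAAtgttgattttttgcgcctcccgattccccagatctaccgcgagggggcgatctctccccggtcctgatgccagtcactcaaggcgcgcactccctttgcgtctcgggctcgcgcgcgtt
PMAIP1, chr18:59899746-59899995: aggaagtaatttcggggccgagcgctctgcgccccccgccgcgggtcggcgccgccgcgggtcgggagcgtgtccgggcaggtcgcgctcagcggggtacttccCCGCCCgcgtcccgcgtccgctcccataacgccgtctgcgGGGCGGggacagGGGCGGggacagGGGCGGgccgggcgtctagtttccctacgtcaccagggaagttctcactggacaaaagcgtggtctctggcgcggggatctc
BAK1, chr6:33580277-33580526: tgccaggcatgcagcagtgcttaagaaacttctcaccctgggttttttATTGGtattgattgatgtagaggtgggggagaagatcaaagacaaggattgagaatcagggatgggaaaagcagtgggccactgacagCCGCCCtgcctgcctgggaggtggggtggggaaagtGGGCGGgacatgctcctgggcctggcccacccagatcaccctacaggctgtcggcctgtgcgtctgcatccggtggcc

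The BCL2L1 window lies on the minus strand, as does that of BAK1, and the PMAIP1 window on the plus strand. The BCL2L1 window held TATAAA at 2 places and none of the other motifs. TATAAA was found in 10.7% of all 35116 RefSeq promoter windows of that length, and among the 8 members in BCL2L1 alone. The PMAIP1 window held 4 GC boxes. The BAK1 window held 2 GC boxes and a CCAAT box. GC boxes occurred in 4 of the 8 members (BAD, BAK1, BCL2L11 and PMAIP1), against 42.6% of all windows. CCAAT boxes occurred in 3 (BAD, BAK1 and BCL2L11), against 32.0%. The E box (6.34% of all windows) and the response element (1.65%) were in 0 of the 8.

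Values in the following are normalised read counts per library, that is, reads of a gene after the authors' scaling of each library by its size factor, with the mean ± SD over the 2 libraries of a group. Log2 fold changes are shALKBH5 over shNC on the log2(value + 1) scale, with limma-trend standard errors and p-values adjusted by the Benjamini-Hochberg method over all 25887 genes tested. All 10 members were tested. In bulk samples such as these, fewer cells with a transcript and less of it per cell cannot be told apart. Gene positions are on GRCh38.

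BCL2L1 (ENSG00000171552, chromosome 20, 31664452 to 31723989, minus strand) encodes BCL-XL and, by alternative splicing, the short death-promoting form BCL-XS, which a count per gene does not separate. It was at 1987 and 1972 in the shALKBH5 libraries, against 1449 and 1530.5 in the shNC libraries. The groups did not overlap, and the gap between them was several times the spread within either. The means were 1979 ± 10.9 in shALKBH5 and 1489.5 ± 57.9 in shNC (SD, n = 2 each), a ratio of 1.33. The log2 fold change was 0.41 ± 0.046 with a 95% interval of 0.30 to 0.53 (limma-trend adjusted p 0.0195). Without shNC library 1 or 2 the log2 fold change was 0.37 or 0.45, and BCL2L1 did not pass in either fit, nor did ALKBH5. Without shALKBH5 library 1 or 2 the log2 fold change was 0.40 or 0.42, and BCL2L1 passed in both. A left-out library leaves its group with no spread of its own, so these calls cannot show which libraries the result depends on. A fit with all 4 libraries but no mean-variance trend gave BCL2L1 no call (limma adjusted p 0.234). In that fit 0 of 25887 genes passed in either direction, and ALKBH5 did not pass either (limma adjusted p 0.0716).

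An annotated antisense gene, ABALON (chromosome 20, 31721507 to 31723409), lies across the 5′ part of BCL2L1 and shares 1424 exonic bases with it. The sources used here do not say if counting used strand, so reads of the shared bases cannot be assigned to either gene with certainty. ABALON was at 225 and 262 normalised counts in shALKBH5, against 145 and 147 in shNC. It rose as well, by 0.73 ± 0.116 on the log2 scale (limma-trend adjusted p 0.0396). With all ABALON counts taken off, BCL2L1 was at 1762 and 1709 in shALKBH5, against 1304 and 1383 in shNC, and the groups stayed apart. The ratio of means was 1.29, with a two-sided exact permutation p of 0.333. That is the smallest p that 2 against 2 libraries allow. How many reads of ABALON were in the BCL2L1 counts was not tested.

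MCL1 (ENSG00000143384, chromosome 1, 150574551 to 150579738, minus strand), a survival protein with a short life that PMAIP1 binds, stood lower. It was at 3952 and 4131 in shALKBH5, against 4493 and 4504 in shNC. The shNC libraries were nearly alike and both lay above the shALKBH5 libraries. The means were 4042 ± 127 in shALKBH5 and 4498 ± 7.33 in shNC, and the log2 fold change was -0.15 ± 0.037 (95% interval -0.25 to -0.06; limma-trend adjusted p 0.0902). In the authors' deposited table MCL1 has a log2 fold change of -0.15 and an adjusted p of 0.0364, and the authors' deposited table gives BCL2L1 0.41 and 6.25e-06. These are the 2 members under 0.05 in the authors' deposited table, where 5.23% of all genes are.

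BCL2 (ENSG00000171791, chromosome 18, 63123346 to 63320128, minus strand), the founding survival gene, was low throughout. It was at 73.0 and 66.1 in shALKBH5, against 64.7 and 66.4 in shNC, and the groups overlapped. The log2 fold change was 0.08 with a 95% interval of -0.35 to 0.51 (limma-trend adjusted p 0.842), the widest interval of the 10. With 65 to 72 reads per library, the values did not settle the sign or size of a change within that interval.

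**Figure D1:**
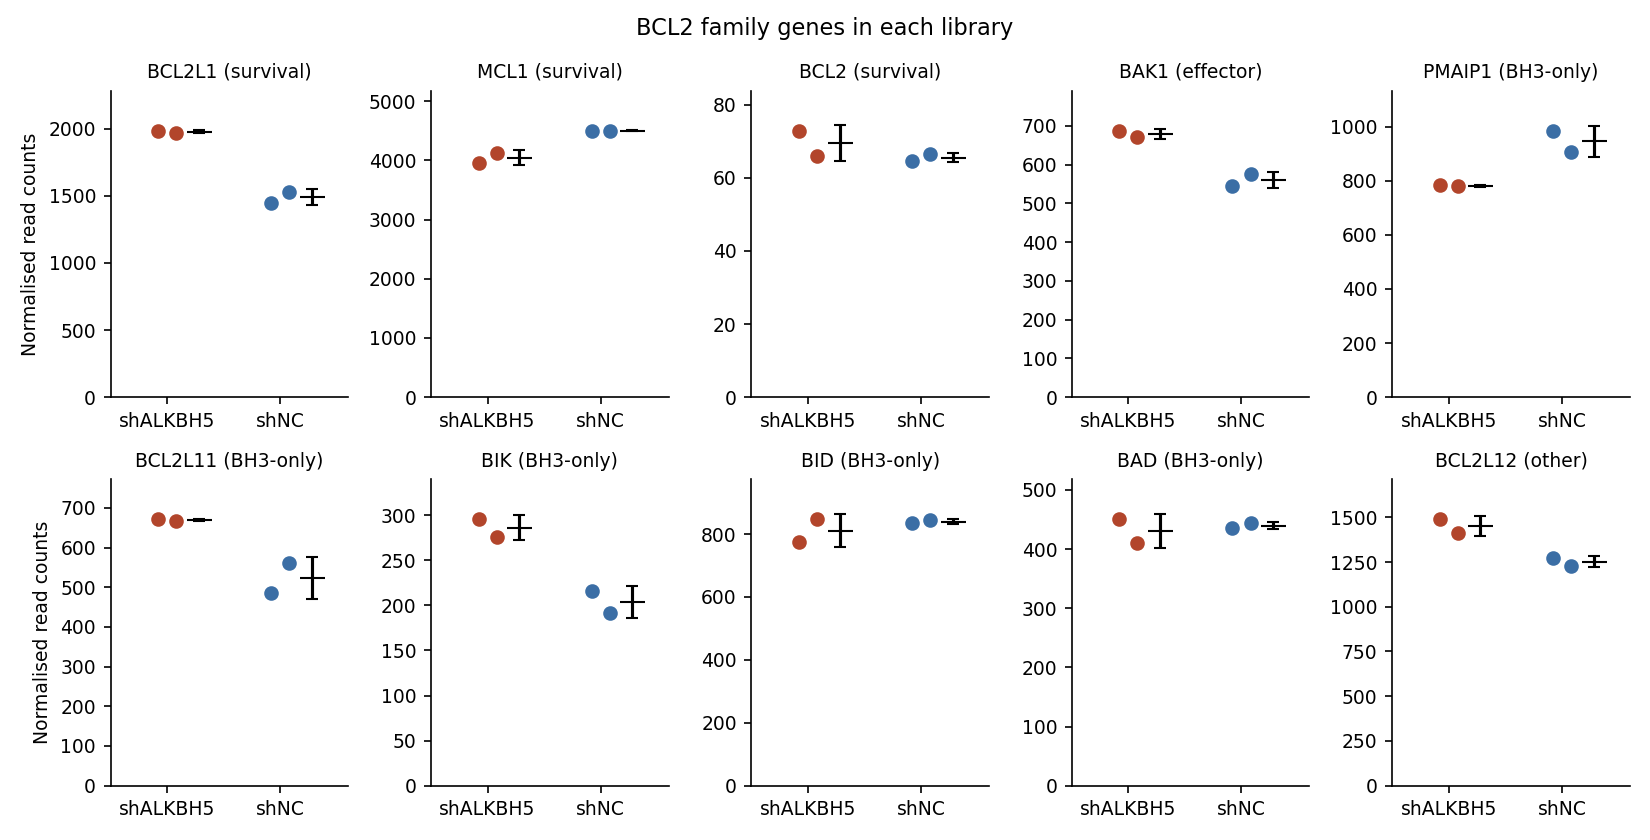
Normalised read counts (vertical axes, each from 0) of the 10 family genes in the shALKBH5 (red) and shNC (blue) libraries, 1 point per library, with the mean and SD of each pair in black. The groups are apart in 7 genes, with shALKBH5 above shNC in 5 (BCL2L1, BAK1, BCL2L11, BIK, BCL2L12) and below it in 2 (MCL1, PMAIP1), and overlap in BCL2, BID and BAD. Groups were apart in 50.6% of all genes tested and in 63.6% of genes averaging 50 or more.

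BAK1 (ENSG00000030110, chromosome 6, 33572547 to 33580293, minus strand) encodes the effector BAK, which sits in the outer membrane and is held by BCL-XL and MCL1. It was at 688 and 671 in shALKBH5, against 546 and 575 in shNC. Both shALKBH5 libraries lay above both shNC libraries. The means were 679 ± 12.3 in shALKBH5 and 561 ± 20.7 in shNC, with a log2 fold change of 0.28 ± 0.0605, at a limma-trend adjusted p of 0.075. The processed pseudogene BAK1P1 took 11 and 15 reads in shALKBH5 and 10 in each shNC library; how reads that match both were assigned is not known. BAX, the other main effector and not among the 10, was at 1539 and 1419 in shALKBH5, against 1339 and 1287 in shNC. The log2 fold change of BAX was 0.17 (limma-trend adjusted p 0.171, edgeR adjusted p 0.0484, DESeq2 adjusted p 0.213). It was singled out after its values were seen.

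PMAIP1 (ENSG00000141682, chromosome 18, 59899948 to 59904306, plus strand) encodes NOXA, a BH3-only protein that acts mainly on MCL1. It was at 783 and 779 in shALKBH5, against 985 and 904 in shNC. The shALKBH5 libraries were within a few counts of each other and below both shNC libraries. The means were 781 ± 3.27 in shALKBH5 and 945 ± 57.4 in shNC, with a log2 fold change of -0.27 ± 0.0615, at a limma-trend adjusted p of 0.0791. It was the 1 BH3-only member whose groups were apart with shALKBH5 lower.

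BCL2L11 (ENSG00000153094, chromosome 2, 111119378 to 111168447, plus strand) encodes BIM, which binds all the main survival proteins and can activate BAK and BAX directly. It was at 672 and 668 in shALKBH5, against 485 and 561 in shNC. The groups did not overlap, although the shNC libraries were well apart from each other, by 2.36 times the SD that counting alone gives, the widest such gap among the 10. The log2 fold change was 0.36 ± 0.0844 (limma-trend adjusted p 0.0864). MIR4435-2HG, a long noncoding RNA gene on the opposite strand, shares 727 exonic bases with BCL2L11. It was at 283 and 247 in shALKBH5, against 226 and 190.0 in shNC (log2 fold change 0.35, limma-trend adjusted p 0.2). Part of the counts of either gene may belong to the other.

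BIK (ENSG00000100290, chromosome 22, 43110748 to 43129712, plus strand), a BH3-only protein found mainly at the endoplasmic reticulum, had the largest fold change of the 10. It was at 296 and 276 in shALKBH5, against 216 and 191 in shNC. The lower shALKBH5 library exceeded the higher shNC library by more than the spread within either pair. The means were 286 ± 13.9 in shALKBH5 and 203 ± 17.6 in shNC, a ratio of 1.41 and a log2 fold change of 0.49 ± 0.103, at a limma-trend adjusted p of 0.0701.

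BID (ENSG00000015475, chromosome 22, 17734138 to 17774770, minus strand), which links death receptors to mitochondria once caspase 8 has cut it, was at 774 and 848 in shALKBH5, against 834 and 845 in shNC. BAD (ENSG00000002330, chromosome 11, 64269830 to 64284704, minus strand), a BH3-only protein kept inactive by phosphorylation, was at 451 and 410.3 in shALKBH5, against 436 and 443 in shNC. In both genes the shNC libraries lay between the shALKBH5 libraries. The log2 fold change was -0.05 for BID, with a 95% interval of -0.21 to 0.11 (limma-trend adjusted p 0.714), and -0.03 for BAD, with an interval of -0.22 to 0.16 (limma-trend adjusted p 0.875). BAD shares 404 exonic bases with GPR137 on the opposite strand, which was at 388 and 340.3 in shALKBH5, against 326 and 295 in shNC.

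BCL2L12 (ENSG00000126453, chromosome 19, 49665142 to 49673916, plus strand), a relative with a reported role in restraining cell death, was at 1491 and 1413 in shALKBH5, against 1275 and 1230.1 in shNC. The groups were apart, with a log2 fold change of 0.21 ± 0.0504, at a limma-trend adjusted p of 0.0883. It shares 734 exonic bases with IRF3, which runs the opposite way. IRF3 was at 1271 and 1284 in shALKBH5, against 1407 and 1269.95 in shNC, with a log2 fold change of -0.07.

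**Figure D2:**
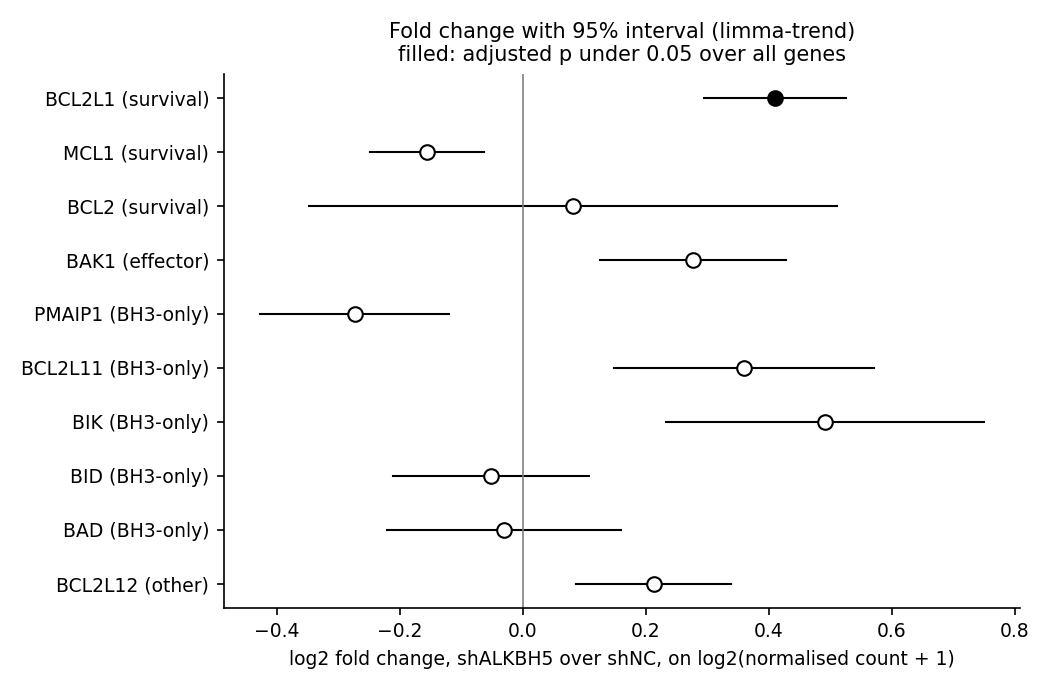
Log2 fold change of the 10 family genes, shALKBH5 over shNC (horizontal axis, on the log2(normalised count + 1) scale), with 95% intervals from limma-trend; a filled point has an adjusted p under 0.05 over all genes tested. BCL2L1 at 0.41 is the 1 filled point, 6 further intervals leave out 0, and BCL2 has the widest interval.

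Set against all genes, 1 of 10 members passed limma-trend, where 3.86% of genes did (1.98% higher and 1.88% lower). The 7 members whose groups did not overlap compare with 50.6% of all genes tested (25.0% higher, 25.6% lower) and with 63.6% of genes averaging 50 or more normalised counts (32.9% higher, 30.8% lower), so separation of the 4 libraries alone was common. The same 7 members had an unadjusted p under 0.05, against 21.4% of all genes tested and 39.0% of those averaging 50 or more. The median log2 fold change was 0.15 over the members and 0.00 (-0.00399) over all genes. What passed depended on the tool: edgeR on whole reads recovered from the deposited values passed 7 of 10 members (adjusted p 0.016 or lower), BCL2L1, BAK1, BCL2L11, BIK and BCL2L12 higher and MCL1 and PMAIP1 lower, where it passed 20.8% of the genes it tested (10.4% higher and 10.4% lower). DESeq2 on those reads passed BCL2L1 higher and MCL1 lower, against 11.9% of the 12428 genes to which it gave an adjusted p (6.38% higher, 5.56% lower); the 5.23% given for the authors' deposited table is the same number of calls, 1484, over all 28391 genes. With limma-trend over genes averaging 50 or more the same 7 passed as in edgeR, against 27.8% of those genes (14.3% higher, 13.5% lower). With the libraries rescaled to equal totals 3 members were higher (BCL2L1, BCL2L11, BIK) and 2 lower (MCL1, PMAIP1), against 8.24% of genes (3.15% higher, 5.09% lower). Over all genes 51.3% of the calls were higher with the deposited scaling and 38.2% with equal totals.

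**Figure D3:**
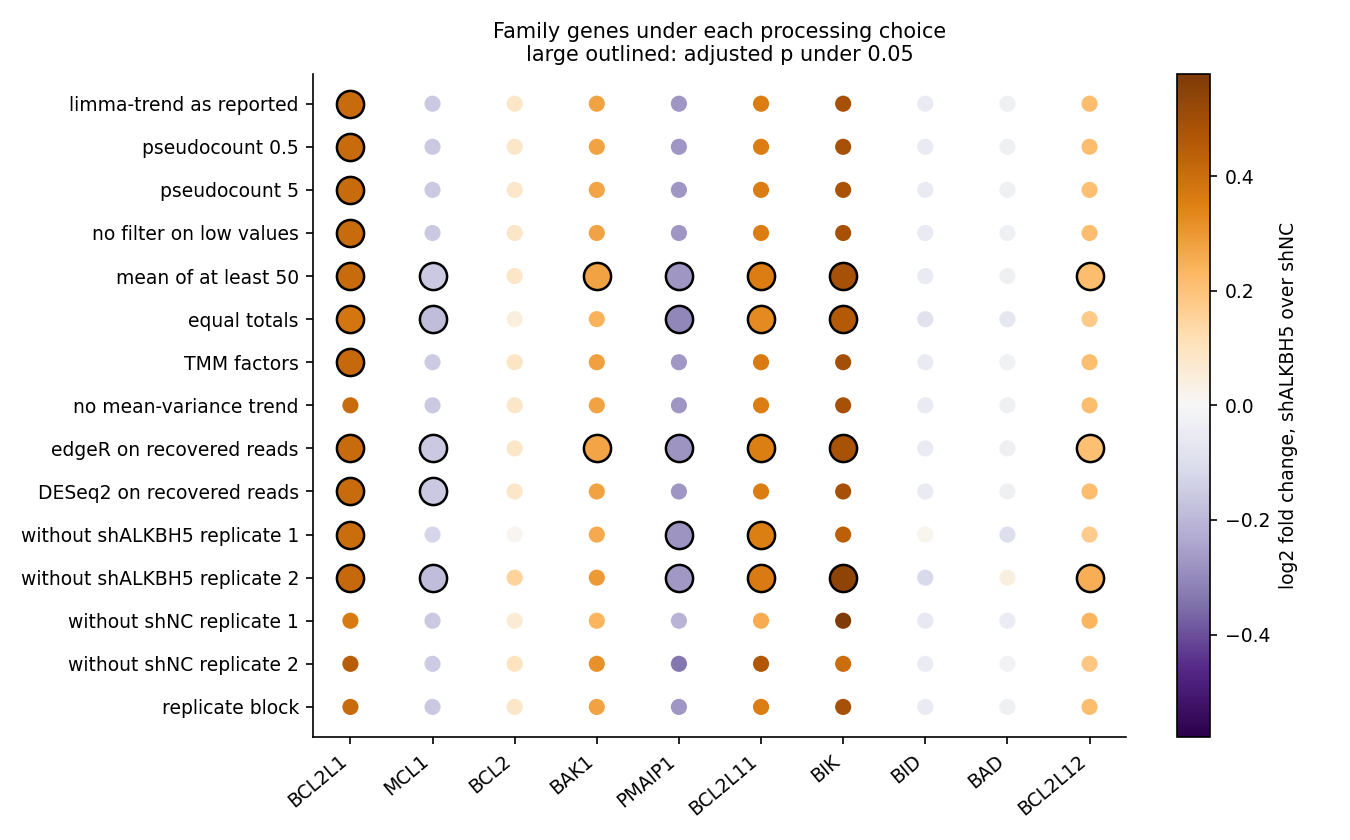
Log2 fold change (colour) of each family gene (columns) with the reported fit and 14 other processing choices (rows); large outlined points have an adjusted p under 0.05. Colours change little down a column while outlines come and go: BCL2L1 is outlined in all but 4 of the 14 alternatives, and BCL2, BID and BAD in none.

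To compare levels between genes, reads were scaled by gene length and library total and are given as RPKM, with gene length taken as all annotated exons. MCL1 stood highest, with an RPKM of 54.1 ± 1.81 in shALKBH5 and 61.6 ± 0.201 in shNC. BCL2L12 followed at 38.3 ± 1.37 in shALKBH5 and 33.8 ± 1.01 in shNC, then BCL2L1 at 35.0 ± 0.124 in shALKBH5 and 26.9 ± 0.915 in shNC, and PMAIP1 at 20.5 ± 0.0457 in shALKBH5 and 25.3 ± 1.66 in shNC. MCL1 and BCL2L12 were first and second in every library, while BCL2L1 and PMAIP1 were far apart in shALKBH5 and overlapped in shNC (26.3 and 27.6 for BCL2L1, 26.5 and 24.1 for PMAIP1). BAK1 (18.2 and 17.8 in the shALKBH5 libraries, 14.8 and 15.5 in the shNC libraries) and BIK (17.6 ± 0.819 in shALKBH5, 12.8 ± 1.17 in shNC) did not differ beyond their spread in shALKBH5, and BAK1 and BAD (14.8 ± 0.954 in shALKBH5, 15.4 ± 0.118 in shNC) did not in shNC. BID (10.7 ± 0.706 in shALKBH5, 11.3 ± 0.0473 in shNC) and BCL2L11 (5.89 ± 0.0149 in shALKBH5, 4.70 ± 0.459 in shNC) were lower, and BCL2 was last at 0.346 ± 0.0236 in shALKBH5 and 0.334 ± 0.0046 in shNC.

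RPKM uses library totals and not the authors' size factors. On that scale the 3 survival genes summed to 88.3 and 90.6 in shALKBH5, against 88.4 and 89.4 in shNC, which is close to level. Equal totals shifted log2 fold changes by a median of -0.0326 from the deposited scaling. The sum was not computed with the deposited scaling, so a level sum is shown for library totals only. The make-up of the sum was not level. MCL1 made up 59.9% and 61.1% of it in shALKBH5, against 69.9% and 68.8% in shNC, and BCL2L1 39.7% and 38.5% in shALKBH5, against 29.7% and 30.8% in shNC. The ratio of BCL2L1 to MCL1 was 0.663 and 0.629 in shALKBH5, against 0.425 and 0.448 in shNC. The groups were apart in each of these shares, with a two-sided exact permutation p of 0.333 for the ratio, the smallest that 2 against 2 libraries allow. BCL2 contributed 0.363% to 0.411% in every library. The shares of MCL1 and BCL2L1 are therefore tied, since either falls when the other rises, and with their ratio they restate a single comparison.

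The BH3-only genes showed a like picture. Their summed RPKM was 70.1 and 68.5 in shALKBH5, against 71.1 and 68.0 in shNC, and these overlapped. PMAIP1 made up 29.2% and 29.8% of the sum in shALKBH5, against 37.3% and 35.5% in shNC. BIK made up 25.9% and 24.8% in shALKBH5, against 19.2% and 17.6% in shNC, and BCL2L11 8.41% and 8.57% in shALKBH5, against 6.16% and 7.40% in shNC. The shares of BID and BAD overlapped between the groups. Shares of the same sum are not independent of each other. The ratio of the summed survival level to the summed BH3-only level was 1.26 and 1.32 in shALKBH5, against 1.24 and 1.32 in shNC, and did not separate them. These sums cover the 3 survival and 5 BH3-only members alone. They leave out other family genes, such as the survival gene BCL2L2 and the BH3-only gene BMF. The ratio therefore does not give the balance of the whole family. Summed over all 10 genes the RPKM was 216 and 214 in shALKBH5, against 209 and 206 in shNC, and the groups were apart. The two-sided exact permutation p was 0.333, the smallest that 2 against 2 libraries allow.

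**Figure D4:**
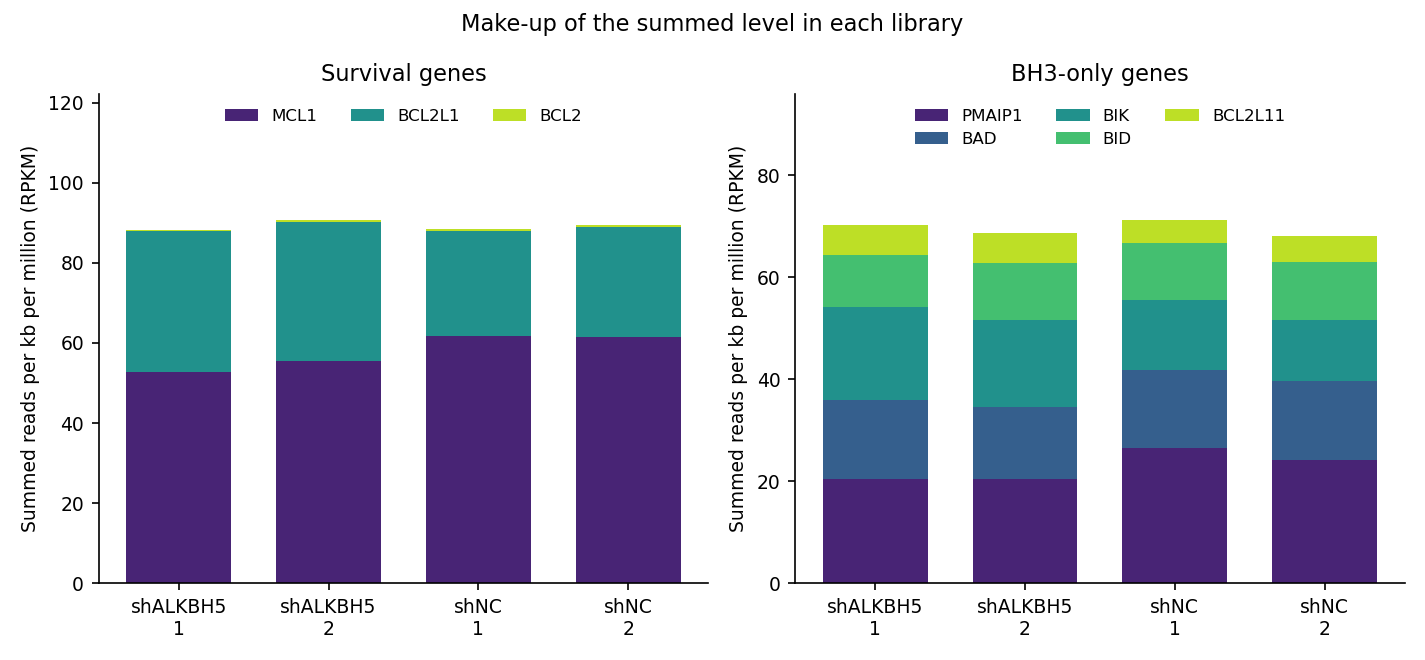
Summed RPKM (vertical axis, from 0) of the 3 survival genes (left) and the 5 BH3-only genes (right) in each library, shALKBH5 libraries left of shNC libraries, split by gene. With this scaling by library totals the bars are of like height in all 4 libraries. BCL2L1, BIK and BCL2L11 take a larger part of them in shALKBH5 and MCL1 and PMAIP1 a smaller one.

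The genes whose profile over the 4 libraries lay nearest to that of BCL2L1, among 11576 protein-coding genes averaging 50 or more, were TM7SF3, RPIA and LGALS1. Their distances, on log2 values centred on each gene's own mean, were 0.0127, 0.0158 and 0.0226. TM7SF3, a membrane protein, was at 1356 and 1357 in shALKBH5, against 992 and 1041 in shNC. With 4 libraries in 2 groups, any gene changed to a like degree lies close.

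Of the other BCL2 family genes, 14 of 16 were in the table, and 0 of the 14 rose or fell in limma-trend; 5 had an unadjusted p under 0.05, and edgeR passed 2 higher and 2 lower. Their median log2 fold change was 0.00 (0.000634). The 2 with the smallest p were BCL2L2 and BNIP3. BCL2L2, the gene of the survival protein BCL-W, was at 621 and 627 in shALKBH5, against 773 and 748 in shNC, with a log2 fold change of -0.29, at a limma-trend adjusted p of 0.0582. BNIP3, a mitophagy receptor induced by hypoxia, had a log2 fold change of 0.22, at a limma-trend adjusted p of 0.0708. BMF, a BH3-only gene singled out after its values were seen, was at 92.2 and 109 in shALKBH5, against 165 and 148 in shNC, a log2 fold change of -0.64, at a limma-trend adjusted p of 0.0829.

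Downstream of the pore, 0 of the 8 genes of the apoptosome and caspases described here passed in limma-trend, with a median log2 fold change of 0.05. By p they were led by APAF1, the scaffold of the apoptosome, at 517 and 540.5 in shALKBH5, against 638 and 670.2 in shNC (log2 fold change -0.31, limma-trend adjusted p 0.0664), and by CASP9, the initiator caspase that the apoptosome activates (0.22, limma-trend adjusted p 0.266). Of the 7 inhibitors of apoptosis and their antagonists 0 passed in limma-trend, with a median of -0.03. HTRA2, a mitochondrial protease, had a log2 fold change of 0.22 and BIRC5, survivin, of 0.08 (limma-trend adjusted p 0.207 and 0.259). An unadjusted p under 0.05 was seen in 1 gene of each list, and edgeR passed 1 (APAF1) in the first and 0 in the second.

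Of 8 death receptors and adaptors, 1 fell, 0 rose in limma-trend and 7 did not pass, with a median of 0.04; 4 had an unadjusted p under 0.05, and edgeR passed 1 lower (TNFRSF1A) and 1 higher, the adaptor gene TRADD (log2 fold change 0.33, edgeR adjusted p 0.0192), which is named after its values were seen. TNFRSF1A, the main receptor of tumour necrosis factor, fell to 1852 and 1651 in shALKBH5, against 2350.3 and 2377 in shNC, a log2 fold change of -0.43 ± 0.0626, at a limma-trend adjusted p of 0.0324. FADD, the adaptor that brings caspase 8 to its receptors, had 0.27 (limma-trend adjusted p 0.14). Among 8 genes of outer membrane channels and mitochondrial fusion and fission 0 passed in limma-trend, with a median of -0.01. The channel gene VDAC1 had 0.15 and VDAC2, whose product binds BAK, 0.11 (limma-trend adjusted p 0.0649 and 0.153). In that list 2 genes had an unadjusted p under 0.05 and edgeR passed 1.

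Of 5 genes that set the stability of the MCL1 protein, 0 passed in limma-trend, with a median of -0.10. FBXW7, part of a ubiquitin ligase for MCL1, had a log2 fold change of -0.28, and USP9X, a deubiquitinase of MCL1, of -0.15 (limma-trend adjusted p 0.087 and 0.108); edgeR passed both, and these 2 had an unadjusted p under 0.05. Of the 11 transcription factors described here that act on BH3-only or survival genes, 1 fell, 0 rose in limma-trend and 10 did not pass, with a median of -0.01; 5 had an unadjusted p under 0.05, and edgeR passed 1 higher and 3 lower. DDIT3, the stress factor CHOP, fell to 110.4 and 125 in shALKBH5, against 231 and 233 in shNC, a log2 fold change of -0.98 ± 0.115, at a limma-trend adjusted p of 0.0214. FOXO3, a forkhead factor that drives BCL2L11 and other BH3-only genes, was at 1103 and 1141 in shALKBH5, against 1327 and 1359.9 in shNC. Its log2 fold change was -0.26, at a limma-trend adjusted p of 0.0505. FOXO3 passed as lower in edgeR (edgeR adjusted p 0.00338) and in DESeq2 (DESeq2 adjusted p 0.0366).

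**Figure D5:**
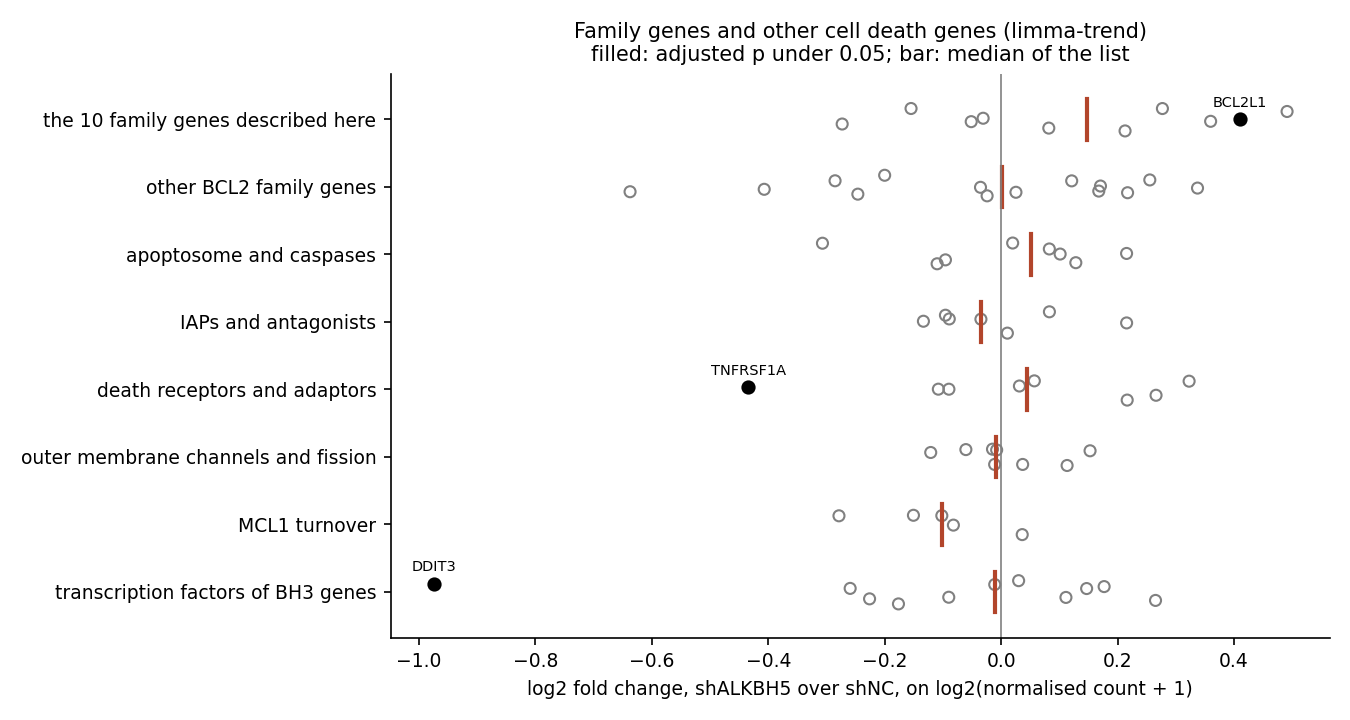
Log2 fold change, shALKBH5 over shNC (horizontal axis, on the log2(normalised count + 1) scale), of the 10 family genes and of 7 lists of other cell death genes, 1 point per gene described, with vertical jitter only. Filled, named points have an adjusted p under 0.05 in limma-trend and red bars mark medians, which lie between -0.10 and 0.15; DDIT3 at -0.98 is farthest from 0.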

How the data were processed

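HCT116 RNA was sequenced with a kit for mRNA, according to the labels' protocols, and the 4 libraries were grouped by title. Not given in the sources used here were the aligner, the counter and the build. All 28391 genes (100%) had the position that GENCODE release 29 gives on GRCh38. The deposited library values are a signal, read counts divided by a size factor per library, as the values show: 100% of the values were whole multiples of 1 read within 0.001 reads. The authors' deposited log2 fold changes and p-values are per the file headers, and DESeq2, run on the recovered reads, gave values within 4.03e-05 (log2 fold change) and 7.95e-06 (p-value) of the authors' deposited ones. Replicates varied beyond counting noise (chi-square per gene 2.28 in shALKBH5 and 3.00 in shNC).

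The main test was limma-trend (limma 3.58.1, R 4.3.3) on log2(value + 1) over genes at 1 or more in at least 2 libraries, Benjamini-Hochberg adjusted, called at 0.05. Its prior had 3.48 degrees of freedom. RPKM values were computed here from the recovered reads and the gene lengths of the table. Alternatives were other pseudocounts (0.5, 5), filters and scalings, no trend, edgeR 4.0.16, DESeq2 1.42.0, a replicate block and each library left out. The scripts were tested on simulated data. Family ratios were compared with exact permutation tests over libraries. The members and lists were chosen with earlier results of these data known. Named genes were all members, ALKBH5, every gene of a list past the threshold and its 2 smallest p, and the 3 profiles nearest a member that passed. DIABLO has 2 entries, of which the one with more reads was used. Of the lists, 2 genes are not reported here, and counts and medians leave them out.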

Additional observations from a re-analysis of the deposited data

How the results depend on the processing

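Over the 10 members and 14 alternatives, 138 of 140 log2 fold changes kept their direction. The 2 that did not belonged to genes near 0: BID was at 0.014 without shALKBH5 library 1 (-0.117 to 0.014 over the left-out libraries) and BAD at 0.0369 without shALKBH5 library 2 (-0.0988 to 0.0369). Of the 140, 112 kept their side of the threshold (these 2 among them), 24 passed where the reported fit did not and 4, all BCL2L1, no longer passed; these were the fit without a mean-variance trend (limma adjusted p 0.234), without shNC library 1 or 2, and the replicate block (limma-trend adjusted p 0.0755). The cause was not tested, except that a left-out library leaves its group with no spread of its own.

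Members called higher, 1 as reported, were 5 over genes averaging 50 or more, 3 with equal totals, 5 in edgeR, 0 without the trend (3 at an unadjusted p under 0.05), 0 with the replicate block (7 members, and 4892 of all 25887 genes, at an unadjusted p under 0.05) and 0 to 4 with a library left out. Members called lower, 0 as reported in limma-trend, were 2 over genes averaging 50 or more, 2 with equal totals, 2 in edgeR, 1 in DESeq2 and 0 to 2 with a library left out. All genes called higher, 513 as reported, were 1789 over genes averaging 50 or more, 787 with equal totals, 1712 in edgeR, 793 in DESeq2, 0 without the trend (3903 in either direction at an unadjusted p under 0.05), 56 with the replicate block and 0 to 1129 with a library left out. All genes called lower, 487 as reported, were 1698, 1272, 1716 in edgeR, 0 without the trend, 55 with the block and 0 to 1152 in the same fits. ALKBH5 was at -2.72 without the trend and did not pass (limma adjusted p 0.0716); it lay between -2.83 and -2.62 with a library left out and did not pass without shNC library 1 or 2 (limma-trend adjusted p 0.216 and 0.223). Same-numbered libraries did not deviate together (r = -0.0149 over 25887 genes), so the numbers show no pairing. Depth limits BCL2 most, with 65 to 72 reads per library.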
